A study of Caenorhabditis elegans with 2 samples.

Results

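The core histone genes his-35, his-37, his-41, his-67 and his-68 of Caenorhabditis elegans lie outside the large repeated histone clusters, and they are described here across the binding sites of the transcription factor HINF-1. They are 5 of 19973 annotated protein-coding genes and 5 of 65 annotated core histone genes (several copies share a gene symbol). They were chosen by the peaks in their promoters in these same data, so signal, rank, distance and agreement of the replicates are given as a description, with no test. HINF-1 was mapped by chromatin immunoprecipitation followed by sequencing (ChIP-seq), in which DNA bound by a protein is pulled down with an antibody and peaks of sequenced fragments mark its positions. All worms were of strain RW12232, in which the hinf-1 gene (F39B2.1) carries TY1, EGFP and 3xFLAG tags inserted with CRISPR as allele st12232, and the pull-down used an antibody against GFP. They were whole young adults of 65 hours, synchronised by bleaching and starvation at the L1 stage, so the tissue that gave each signal is not resolved. There was 1 group of 2 biological replicates and no second condition. The authors deposited 8 peak lists. The conservative list held 567 peaks, the optimal list 630, and the thresholded lists of the single replicates 209 (replicate 1) and 272 (replicate 2). The 4 ranked lists, which also hold peaks that do not pass the threshold, had between 51539 and 96558 peaks. The sequencing depth is unknown from these lists, so no counting interval is given for a signal value.

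Core histones H2A, H2B, H3 and H4 form the protein core around which DNA is wrapped, and animal cells need large amounts of them when DNA is copied. Many animal histone genes are therefore transcribed in S phase, have no introns and sit as divergent pairs that share the DNA between them. The human counterpart of HINF-1, HINFP, is a zinc-finger protein known for binding promoters of human histone H4 genes. Among the 5 genes, his-37 and his-67 encode H4, his-35 and his-68 encode H2A, and his-41 encodes H2B.

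The 5 genes share 3 promoter regions. The genes his-67 and his-68 are a divergent pair separated by 368 bp, his-35 and his-41 are a divergent pair separated by 247 bp, and his-37 has a promoter of its own. The deposited files place a strong peak in the first and the last of these regions and a weak peak between his-35 and his-41. The stretches upstream of his-37 and between his-35 and his-41 are shown because they lie near each other on the same chromosome and carry very different signals. The his-37 stretch runs from the start of its peak to the base before the annotated 5′ end (V:9546887-9547104, forward strand, 218 bases), and the summit is base 129. The other stretch is the whole interval between his-35 and his-41 (V:9545289-9545535, forward strand, 247 bases), and the summit is base 204. Sequences are from the WBcel235 assembly, the same assembly as ce11. Capitals mark TGTGTCCC, the TATAAA hexamer and GGGCGG.

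his-37: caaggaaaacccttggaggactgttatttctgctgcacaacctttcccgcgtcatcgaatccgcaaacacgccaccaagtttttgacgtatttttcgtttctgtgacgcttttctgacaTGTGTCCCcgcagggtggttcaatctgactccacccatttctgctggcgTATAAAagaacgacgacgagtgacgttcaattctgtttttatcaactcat
his-35 and his-41: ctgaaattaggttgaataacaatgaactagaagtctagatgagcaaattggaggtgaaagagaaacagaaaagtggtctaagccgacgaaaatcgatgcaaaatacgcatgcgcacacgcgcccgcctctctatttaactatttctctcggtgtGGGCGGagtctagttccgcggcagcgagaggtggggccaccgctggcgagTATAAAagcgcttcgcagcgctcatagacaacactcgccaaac

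The his-37 stretch holds TGTGTCCC just before the summit and TATAAA starting 50 bp before the annotated 5′ end. The interval between his-35 and his-41 has TATAAA next to the summit and GGGCGG, and it holds TGTGTCCC in neither orientation. The GC content was 46.3% in the first stretch and 49.8% in the second.

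The 8 letters TGTGTCCC and the letters around them also occur at other core histone genes with a conservative peak, and these are shown so that the letters common to them can be compared. Each stretch has 38 bases and reads in the direction that gives TGTGTCCC, which is in capitals. Those at his-37 (V:9546991-9547028), his-61 and his-62 (IV:7486431-7486468), his-5 and his-6 (V:8535093-8535130) and his-17 and his-18 (V:8898108-8898145) are on the forward strand. Those at his-59 and his-60 (IV:7488085-7488122) and at his-3 and his-4 (V:16040607-16040644) are on the reverse strand.

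his-37: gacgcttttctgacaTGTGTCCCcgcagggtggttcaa
his-59 and his-60: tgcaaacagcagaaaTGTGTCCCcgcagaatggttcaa
his-61 and his-62: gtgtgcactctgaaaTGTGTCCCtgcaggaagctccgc
his-5 and his-6: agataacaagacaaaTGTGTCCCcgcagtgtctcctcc
his-3 and his-4: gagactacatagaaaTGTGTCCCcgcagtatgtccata
his-17 and his-18: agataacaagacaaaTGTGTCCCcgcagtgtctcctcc

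In these 6 stretches the capitals are followed by cgcag in all but the one at his-61 and his-62. The stretches at his-5 and his-6 and at his-17 and his-18 are identical over all 38 bases, and both pairs encode H3 and H4.

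A gene was counted as having a peak when a summit, the highest point of a peak, lay within 500 bp of its annotated 5′ end. In the conservative list this held for 3 of the 5 genes, his-67, his-68 and his-37, beside 1.32% of all protein-coding genes. In the optimal list it held for all 5, beside 1.48%. All 5 also had a summit in the thresholded list of replicate 1, beside 0.546% of protein-coding genes. In that of replicate 2 it held for his-67, his-68 and his-37, beside 0.666%. Since these peaks chose the genes, nothing is read from the size of these counts. In the ranked list that matches the conservative one, all 5 genes had a summit within 500 bp, as did 66.6% of protein-coding genes.

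**Figure D1:**
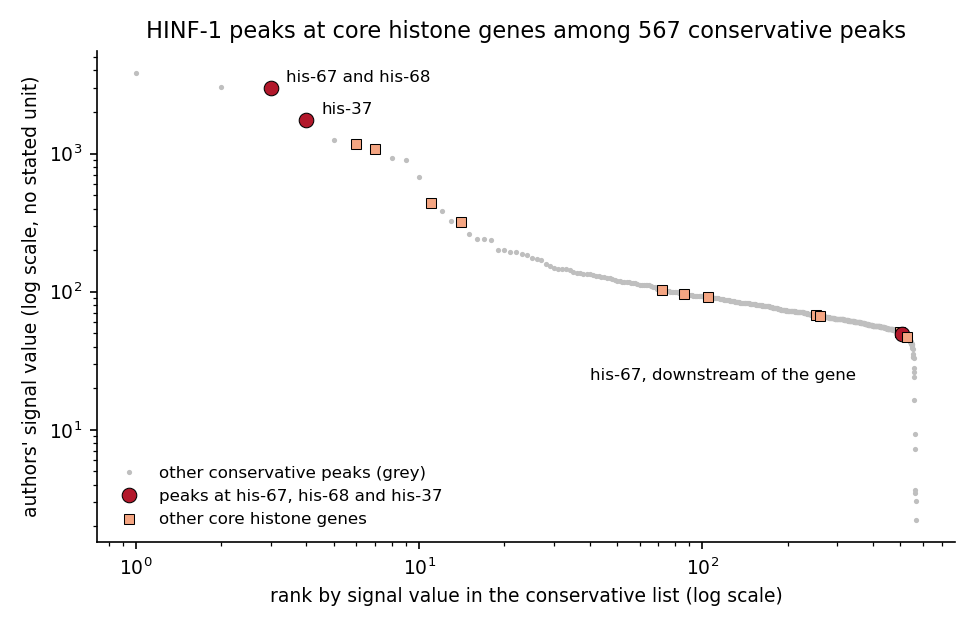
Signal value of the authors' peak caller (y axis, log scale, no stated unit) against rank in the conservative list (x axis, log scale), 1 point per peak. The peaks at his-67 and his-68 (2984) and at his-37 (1740) stand at ranks 3 and 4 of 567, above all peaks at other core histone genes (squares), and the weak second peak of his-67 stands at rank 509.

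The H4 gene his-67 (WBGene00001941, I:9988452-9988763, reverse strand) and the H2A gene his-68 (WBGene00001942, I:9989132-9989515, forward strand) shared 1 peak whose summit lay in the intergenic DNA between them. The peak interval (I:9988763-9989240) ran from the first base of his-67 into the coding sequence of his-68. Its signal value, the authors' own number for a peak's strength, was 2984 in the conservative list, where the median peak had 64.7. The value was the same in the optimal list. In replicate 1 the peak had 1189 and in replicate 2 it had 1781, each on the scale of its own list. Its rank was 3 in the conservative and optimal lists, 3 among the 209 thresholded peaks of replicate 1 and 2 among the 272 of replicate 2. The peak was strong in every list. In the 4 ranked lists it had a value of 5 for the −log10 of the global IDR, the irreproducible discovery rate. The IDR is low where 2 peak sets rank a peak both alike and high. A −log10 value of 2 or more passes the authors' threshold. The thresholded lists do not hold every passing peak: 696 pass in the ranked list that matches the conservative list of 567. The ranked lists also hold peaks that do not pass, some with a higher signal value than a passing peak. Ranks here follow signal value, so for both reasons they can differ between the 2 kinds of list.

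The position of this peak was also similar in the 2 replicates. In the conservative list the summit lay 235 bp upstream of his-67 and 134 bp upstream of his-68. It lay 248 bp and 121 bp upstream in replicate 1, and 228 bp and 141 bp upstream in replicate 2, a gap of 20 bp between the replicates. In each list the summit was thus closer to the H2A gene. The peak was 478 bp wide, and no conservative peak was wider, while the median width was 230 bp. The annotated models of both genes have 1 exon and no UTR, so their 5′ ends are the start codons and the distances are measured from there. With a 368 bp interval this pair is the widest of the 31 divergent core histone pairs, which range from 227 bp to 368 bp, and it is the single pair of an H2A with an H4 gene. Of the other divergent pairs, 2 of 16 H2A-H2B pairs and 4 of 14 H3-H4 pairs had a conservative summit between them.

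The gene his-67 had a second, weak summit within the limit. It lay 318 bp downstream of the 5′ end, just past the 3′ end of the gene (I:9988330-9988559), and 687 bp from his-68, outside its limit. Its signal value was 49.6, rank 509 of 567 in the conservative list, 60.2 times below the main peak. In the thresholded list of replicate 1 it had 22.9 and rank 207 of 209. In the ranked list of replicate 2 a peak nearby had 29.8, but its −log10 IDR of 0.182 did not pass, and the optimal list did not contain it. The second summit was thus called in 1 replicate and in 1 of the 2 joint lists.

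The H4 gene his-37 (WBGene00001911, V:9547105-9547607, forward strand) had the second strongest peak of the group (V:9546887-9547138), which reaches from the intergenic DNA shown above into the first exon. The signal value was 1740 in the conservative and optimal lists, rank 4 in both. It was 749.5 in replicate 1 and 1003 in replicate 2, again rank 4 in both thresholded lists. The −log10 IDR was 5 in the 4 ranked lists. The summit lay 90 bp upstream of the 5′ end in the conservative list, 86 bp in replicate 1 and 90 bp in replicate 2, so the replicates differed by 4 bp. The peak was 252 bp wide. The annotated his-37 gene has 2 exons, with an intron of 74 bp, a 5′UTR of 29 bp and a 3′UTR of 88 bp. No other gene had its 5′ end within 500 bp of the his-37 summit. The nearest was C50F4.6, annotated as a cold-shock protein, at 923 bp.

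The H2A gene his-35 (WBGene00001909, V:9544659-9545288, reverse strand) and the H2B gene his-41 (WBGene00001915, V:9545536-9546264, forward strand) shared a weak peak (V:9545377-9545606). It was absent from the conservative list. In the optimal list its signal value was 50.8, rank 553 of 630, below the list median of 63.4. Replicate 1 had 30.7, rank 192 of the 209 thresholded peaks. Replicate 2 had 23.6, rank 3763 of 51539 in its ranked list, and the peak was not in its thresholded list. The peak thus stood near the lower end of the 2 thresholded lists that held it, though 92.7% or more of the peaks in each ranked list had a lower value, and it passed in 1 of the 2 replicates.

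The IDR values at his-35 and his-41 lay on both sides of the threshold. The −log10 IDR was 1.93 in the ranked list that matches the conservative one and 2.41 in the one that matches the optimal one. These are global IDR values of 0.0117 and 0.00386, and the threshold is 0.01. It was 2.04 in replicate 1 and 0.901 in replicate 2. The optimal summit lay 204 bp upstream of his-35 and 44 bp upstream of his-41. In replicate 1 the distances were 178 bp and 70 bp, and in replicate 2 they were 212 bp and 36 bp, a gap of 34 bp between the replicates. In the ranked list of replicate 2, a summit 419 bp downstream of the his-41 5′ end had 24.6 and was stronger than the one between the genes. Both genes have 2 exons, with an intron of 132 bp in his-35 and of 214 bp in his-41.

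**Figure D2:**
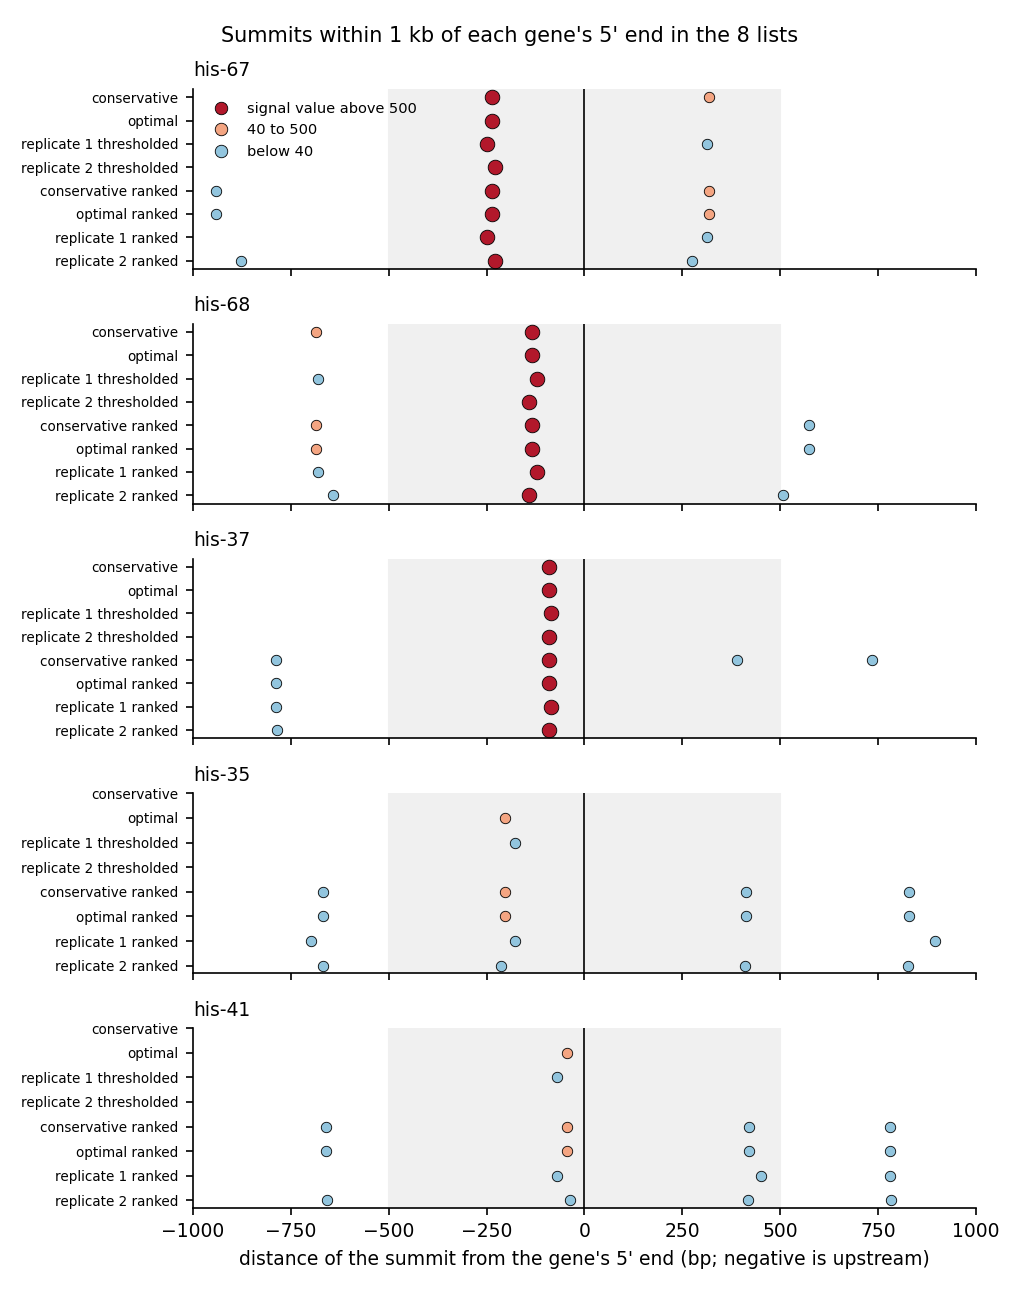
Position of every summit within 1 kb of the 5′ end of each gene (x axis, bp, negative is upstream) in each of the 8 lists (y axis), coloured by signal value class, with the 500 bp limit shaded. At his-67, his-68 and his-37 a summit of over 500 stands at nearly the same upstream position in all 8 lists, while the summit upstream of his-35 and his-41 is missing from the conservative list and from the thresholded list of replicate 2.

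In every list that held them the 3 promoter regions stood in one order. The peak at his-67 and his-68 exceeded that at his-37 by 1.72 times in the joint lists, 1.59 times in replicate 1 and 1.78 times in replicate 2. The his-37 peak exceeded that at his-35 and his-41 by 34.3 times in the optimal list, 24.4 times in replicate 1 and 42.6 times in the ranked list of replicate 2. Relative to the median of the replicate's ranked list, the peak at his-67 and his-68 stood at 109 times in replicate 1 and 126.2 times in replicate 2. For his-37 these values were 68.7 and 71.0. For his-35 and his-41 they were 2.82 and 1.67. The values of the 3 regions did not overlap between regions in the 2 replicates. With 2 replicates and genes chosen by these values, no test was made of this order.

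**Figure D3:**
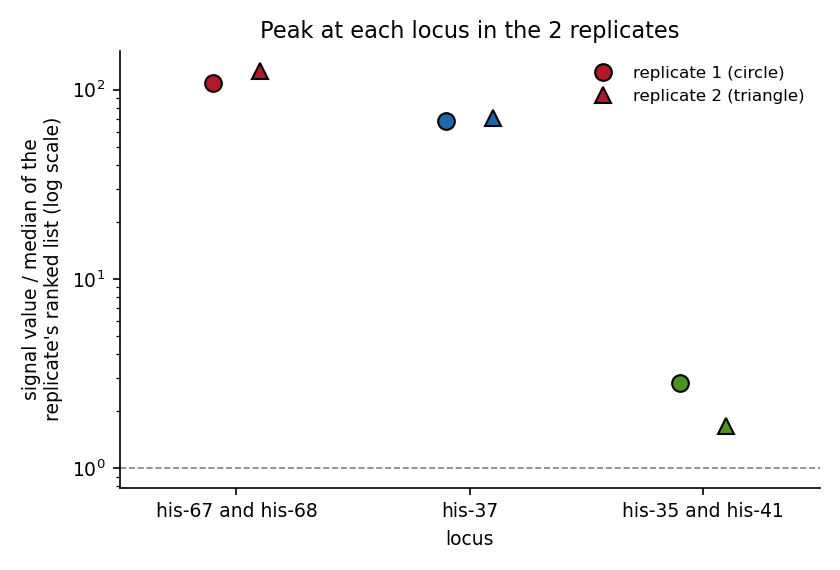
Signal value of the peak at each of the 3 regions divided by the median of the replicate's ranked list (y axis, log scale), for replicate 1 (circles) and replicate 2 (triangles). The dashed line is the list median, and the his-35 and his-41 peak lies 2.82 and 1.67 times above it while the other two regions lie at least 68.7 times above it.

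The other peaks near the summits at his-67, his-68 and his-37 were much weaker. Those within 1500 bp of the summit at his-35 and his-41 were of similar size in replicate 2 and weaker in replicate 1. The his-37 summit falls just outside that window, at 1553 bp in replicate 1 and 1515 bp in replicate 2. Within 1500 bp of the summit at his-67 and his-68, the strongest other peak of replicate 1 had 22.9 and that of replicate 2 had 29.8. Around his-37 these were 19.8 and 24.6. Around his-35 and his-41 the other peaks reached 19.8 in replicate 1, and 24.6 in replicate 2, where the peak between the genes had 23.6. The peak between the genes was 1.55 to 2.88 times the others in replicate 1 and 0.956 to 1.47 times in replicate 2. The genes his-35, his-41 and his-37 together span 2949 bp, and the forward-strand gene C50F4.6 (V:9546092-9546841) starts inside his-41, overlaps its last 173 bp and ends before his-37. The his-37 peak lay 1727 bp from his-35 and 1479 bp from his-41, beyond the limit of 500 bp, so it was not counted for them.

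**Figure D4:**
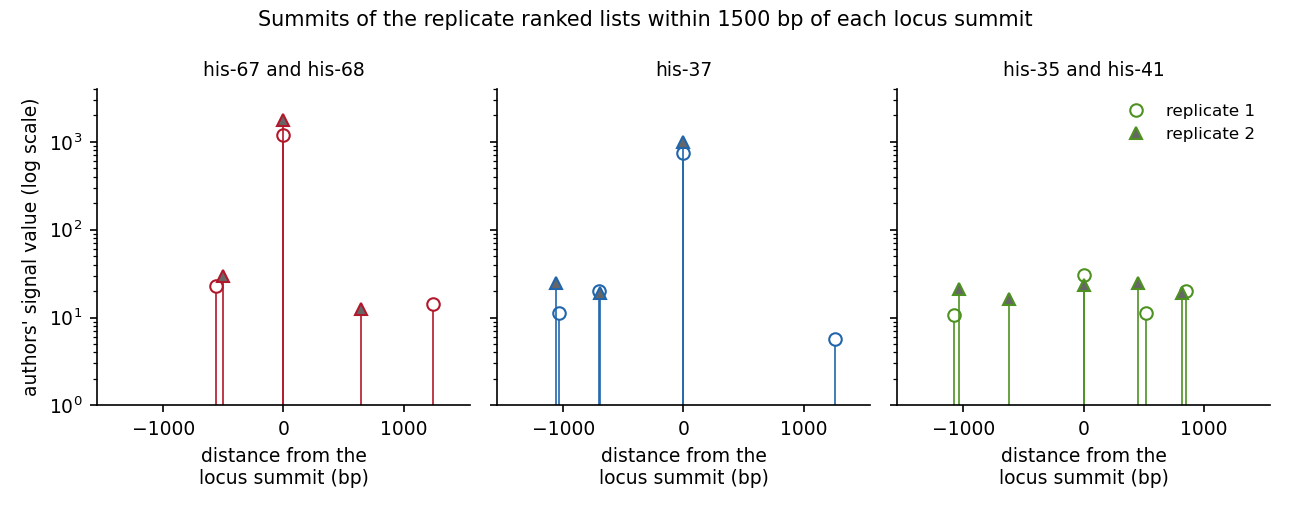
Signal values (y axis, log scale) of the summits in the ranked lists of replicate 1 (open circles) and replicate 2 (filled triangles) within 1500 bp of the replicate's own summit at each region (x axis, bp). At his-67 and his-68 and at his-37 the central peak stands far above its neighbours in both replicates. At his-35 and his-41 it has 30.7 in replicate 1, where the strongest neighbour has 19.8, and 23.6 in replicate 2, where that has 24.6.

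The values just outside the limit were as follows. In the conservative list the nearest summit outside it was 8860 bp from his-67 (signal value 158.2), 687 bp from his-68 (49.6, the second his-67 peak) and 56574 bp from his-37 (72.6). The farthest summit inside it was the second one of his-67 at 318 bp.

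The proteins were compared by translating the annotated coding sequences. The his-37 and his-67 proteins are identical over 103 residues, and all 16 H4 genes encode this protein, while 85.4% of the coding bases are the same. The his-68 protein is encoded by 16 of the 17 H2A genes. The his-35 protein is found in that gene alone and differs from it at 1 of 127 residues (A123G, with the his-35 residue first and counted from the initiator methionine). The his-41 protein of 123 residues is likewise encoded by that gene alone among the 17 H2B genes. Among the 5 genes, the weak peak lies between the 2 with a protein of their own, and the strong peaks lie at those whose protein has other copies. Of the 16 H4 genes, all with the same protein, 6 had a conservative summit. A link between protein and peak was not tested. Of the 65 core histone genes, 4 have an annotated intron, and his-35, his-37 and his-41 are 3 of these.

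The word GGGACACA, the reverse complement of TGTGTCCC, was taken from earlier results of these data, and it was searched within 100 bp of the summit on both strands. At his-67 and his-68 it covered the summit, from 6 bp before it to 1 bp after it on the forward strand. At his-37 it ended 2 bp before the summit. It was absent within 100 bp of the summit at his-35 and his-41. It occurred in 20 of the 567 conservative windows (3.53%) and in 0.621% of the windows from 250 bp upstream to 50 bp downstream of all protein-coding 5′ ends. Of the 20 strongest conservative peaks 15 held it, and of the other 547 peaks 5 did. Since the word came from these same data, this split is a description, and a link between word and signal was not tested.

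The regions at his-37 and at his-67 and his-68 shared 10 words of 8 letters within 100 bp of their summits, of which 8 lie in a common run of 15 letters. In the his-37 sequence above this run is the capitals TGTGTCCC with the base before them and the 6 bases after them. The region at his-67 and his-68 has a second copy of the run with 1 mismatch, starting 30 bp after the summit. The best match at his-35 and his-41 had 6 mismatches, and 64.9% of conservative windows match as well or better. Without mismatch the run occurred in 8 of the 567 windows (1.41%). These include the windows at his-37 and at his-67 and his-68, from which the run was taken. The windows at ranks 1, 2, 8, 9, 12 and 16 belong to peaks that were not counted for a core histone gene. His-37 and the pair his-35 and his-41 shared 6 words of 8 letters with a longest common run of 10 letters. Of these words, 2 contain the TATAAA hexamer. The region at his-67 and his-68 and that at his-35 and his-41 had 2 such words in common.

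**Figure D5:**
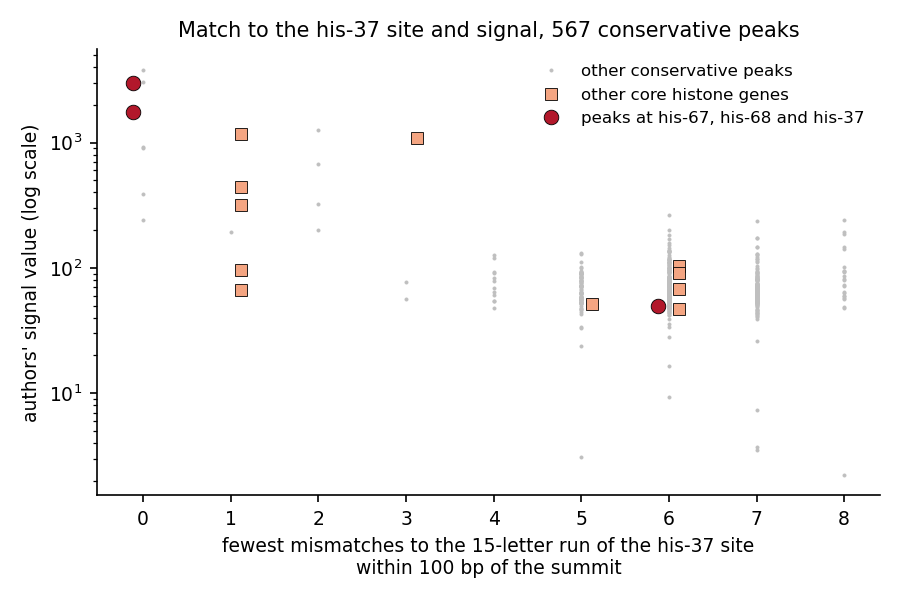
Signal value (y axis, log scale) against the fewest mismatches to the 15-letter run of the his-37 site within 100 bp of the summit (x axis), for the 567 conservative peaks. The run was taken from the peaks at his-67 and his-68 and at his-37, so these have 0 mismatches by its choice. Some peaks not at core histone genes also have 0. Upstream peaks at other core histone genes have 1 mismatch at signal values from 66.7 to 1173, except that between his-63 and his-64 (1083), which has 3. The second his-67 peak has 6.

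Other words fixed for the search gave a different picture. TATAAA was found at all 3 regions, starting 60 bp before his-68, 50 bp before his-37 and 43 bp before his-41. The his-68 distance is from the start codon, since its annotated model has no 5′UTR. The models of his-37 and his-41 have a 5′UTR of 29 bp and 43 bp, so the distances are not alike in kind. TATAAA is common, being in 38.01% of promoter windows and 15.2% of conservative windows. CCGCCC (reverse complement GGGCGG), the core of GC-box elements, was found at his-67 and his-68 and at his-35 and his-41. It was in 7.87% of promoter windows and 9.70% of conservative windows. GAGAGA was found at the same 2 regions, with 2 overlapping matches at the first, beside 21.8% of promoter windows and 20.1% of conservative windows. CGTCCG and the longer ACGTCCG, which contains it, TTTCGCGC, TTTGGCGC, CACGTG and CGCGCGC were found at none of the 3 regions. The GC content of the window, 100 bp on each side of the summit, was 49.3% at his-67 and his-68, 46.8% at his-37 and 55.2% at his-35 and his-41, with a median of 42.8% over conservative windows. A match describes the letters in the window, and its part in binding was not tested.

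The other core histone genes put these values in context. Of the 60 others, 15 had a conservative summit within 500 bp, and by type 4 of 15 H2A, 2 of 16 H2B, 5 of 15 H3 and 4 of 14 H4 genes did. All of the 6 genes his-59 to his-64 had one, with signal values of 1173 between his-59 and his-60 (H3 and H4), 1083 between his-63 and his-64 (H3 and H4) and 438.2 between his-61 and his-62 (H2A and H2B). Among his-1 to his-8, 4 of 8 genes had one, with 320.1 between his-5 and his-6 (H4 and H3) and 95.8 between his-3 and his-4 (H2A and H2B). The remaining 46 genes had 5 with a summit, with values from 66.7 to 103.5. The summits at a copy of his-45 (91.6) and at copies of his-47 (103.5 and 67.4) lay 479 to 497 bp downstream of the 5′ end, near the limit. The peaks at his-67 and his-68 and at his-37 had higher values than all of these in the conservative list and in both replicates.

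The core histone genes differ in how far reads can be placed in a single position. The share of 31-letter words within 250 bp of the 5′ end that occur once in the genome was 86.2% to 100% for the 5 genes described here. It was 51.2% to 85.4% for his-59 to his-64, 38.4% to 77.3% for his-1 to his-8 and 0% to 81.5% for the remaining 46. How the authors treated reads with several positions is not given in the sources used here, and the part of this difference in the signal values was not tested. Among the 14 conservative peaks at core histone genes, 8 lay upstream of every gene they were counted for, and 7 of these held TGTGTCCC, the exception being that between his-63 and his-64. The 6 others held it in none.

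Genes of histone mRNA processing and histone chaperones were compared with these values. Of 14 listed genes, 1 had a conservative summit within 500 bp, beside 1.32% of all protein-coding genes. This was lin-53, which encodes a histone-binding WD40 protein, with a signal value of 63.8, rank 298, 261 bp upstream. The gene cdl-1, which encodes the worm stem-loop binding protein of histone mRNA, had none, and its strongest ranked peak had 23.6, rank 25244. All 14 had a peak in the ranked list that matches the conservative one, with at most 63.8, as did 66.6% of all protein-coding genes at any value.

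The genes outside the histone lists most like each region were found by the mean absolute difference in log10 signal over the ranked lists of the 2 replicates, over the 5506 protein-coding genes outside the histone lists that had a summit in both lists no more than 500 bp from their 5′ end. Peaks farther from a 5′ end, such as those inside introns, and peaks at linker histone genes are not in this set, so the second gene named can differ much from the region. For the peak at his-67 and his-68 these were K07C5.13 (a difference of 0.112) and rpl-3 (1.05). K07C5.13 had 1594 in replicate 1 and 2222 in replicate 2, and rpl-3, which encodes a protein of the large ribosomal subunit, had 129 and 131.1. For his-37 they were K07C5.13 (0.337) and rpl-3 (0.824). For his-35 and his-41 they were pas-1, a proteasome subunit gene (0.0165), with 30.2 and 24.96, and acer-1 (0.0171), with 28.5 and 23.5. The gene pas-1 was in the conservative and optimal lists and acer-1 was in neither.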

How the data were processed

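The starting point was 8 peak lists of HINF-1 ChIP-seq on build ce11, deposited by the authors. Per the file headers, they come from filtered alignments of 1 replicate or both and a further input. Which peak caller made them is not given in the sources used here. A control experiment named in the labels was not used here. The authors deposited in column 7 a signal value per peak; its scaling is not stated, and it was compared only within a list, and ratios across replicates use values within each. The ranked lists hold, as deposited, the −log10 of each peak's global IDR, where 2 or more passes (an IDR of 0.01 or less). The 32 further columns of those lists, which carry no sample name, were not used. The ranked list called here the match of the conservative list is the one in which all 567 of its peaks pass, and the other holds all 630 optimal peaks. These ranked lists have 696 and 764 passing peaks, more than the 567 and 630 listed. What removed the others was not tested.

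Genes were those of Ensembl release 115 and RefSeq for WBcel235, the assembly ce11 names. All peaks lay inside its chromosomes. A summit within 500 bp of a gene's 5′ end counted for that gene, so a divergent peak served both. Proteins were compared by translating coding sequences. The members, lists and words were chosen with earlier results of these data known. Named genes were the 5 members, genes within 500 bp of their summits, other core histone genes with a conservative summit, listed chaperone genes with one, and the 2 most like genes per region; cdl-1 and C50F4.6 were named after their values were seen. There is 1 group, so no condition was compared. The assignment and word search were tested on simulated data. Alternatives were distance limits, lists, replicates, a signal cut and other 5′ ends. Python 3.11.15, numpy 2.4.6 and matplotlib 3.10.9 were used.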

Additional observations from a re-analysis of the deposited data

How the results depend on the processing

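No paired analysis was possible because the study has a single group. The number of the 5 genes with a summit was 3 in the conservative list and 5 in the optimal list, it was 2 at a limit of 200 bp, where his-67 (235 bp) lost its peak, and leaving out one replicate gave 3 to 5: it was 5 from replicate 1 alone and 3 from replicate 2 alone, his-35 and his-41 being called in replicate 1. The share of peaks weaker than that at his-67 and his-68 was 99.997% in the ranked list and 98.6% to 99.3% with one replicate left out; for his-37 it was 99.994% and 98.1% to 98.5%. The background share of protein-coding genes was 0.716% at 200 bp, 2.04% at 1000 bp and 0.546% to 0.666% with one replicate left out, the replicate lists being shorter. Of the H2A genes 3 had a conservative summit at 200 bp and 3 at 300 bp, and 3 to 5 with one replicate left out, against 5; of the H2B genes 4 had one at 1000 bp, against 2. The H3 and H4 counts stayed within 1.5 times. For each of the 5 genes, the distance of the strongest summit upstream of the 5′ end moved by at most 26 bp, in 31 alternatives. Downstream summits were left out of this comparison. With them, the strongest summit of his-41 in the ranked list of replicate 2 lay 419 bp downstream, against 44 bp upstream in the optimal list. The cause of these moves was not tested. The depth is unknown and there are 2 replicates.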
